A study of Homo sapiens with 12 samples.

Results

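Promoters of stand-alone long non-coding RNA (lncRNA) genes were taken as windows reaching 1 kb up- and downstream from the start of each lncRNA gene on chromosomes 1 to 22 (hg38) that began more than 5 kb from every protein-coding start site. There were 9274 such windows among 31311 start-site windows, of which 18783 belonged to protein-coding genes and 3254 to lncRNA genes beginning within 5 kb of a protein-coding gene. Merging windows that overlapped left 8965 regions. Another 5267 lncRNA genes had no strand in the annotation used here, so their start could not be placed and they were left out. The windows kept were uneven over chromosomes, with 132 on chromosome 8, against 474 on chromosome 7 and 439 on chromosome 9. Whether the genes left out resemble those kept was not tested.

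Chromatin accessibility had been assayed by bulk ATAC-seq, which reads out where the transposase Tn5 can cut, in 3 established human acute myeloid leukaemia (AML) lines. A fusion protein of MLL1 (KMT2A) is made from a rearranged gene in MOLM13 and MV4-11, and OCI-AML3 has a mutant NPM1 instead. In each line, cryopreserved cells treated for 16 h with 500 nM VTP50469, an inhibitor of the binding of menin to MLL1, were set against control cells, with 2 libraries in each of the 6 groups and 12 libraries in all. MOLM13 and OCI-AML3 were grown in RPMI and MV4-11 in IMDM, so a difference between MV4-11 and the other lines cannot be told apart from one between media. Each line stands for 1 established culture and not for a class of leukaemia. Peaks had been called in every library by itself, and a window counted as open where at least 1 peak overlapped it. A window without a peak was one in which none was called and need not be closed. Of 8 myeloid marker promoters 3 (SPI1, CEBPA and LYZ) had a peak in all 12 libraries and 5 in part of them, with CD33 in 1 library and CSF1R in 2. Of 5 T cell markers 1 (BCL11B) was open in all 12, 3 in part and CD3E in none, of 5 B cell markers 1 (EBF1) in all 12, 2 in part and 2 in none, and of 4 erythroid markers 1 in part and 3 in none.

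LncRNA genes are transcribed by RNA polymerase II from promoters of their own, and their transcripts are capped and mostly spliced but encode no long protein. Some serve as host genes, from whose introns or exons microRNAs or small nucleolar RNAs (snoRNAs) are cut, others build nuclear bodies or act on neighbouring genes, and for most no function is known. LncRNA genes are known for being transcribed at lower levels and in fewer cell types than protein-coding genes. Promoters of vertebrates fall into CpG-rich ones, which tend to be open in many tissues, and CpG-poor ones. A promoter was called CpG-rich here where the 300 bases from 250 before to 50 after the start had a ratio of observed to expected CpG of at least 0.6 and a GC content of at least 50%.

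The sequences of 9 of these promoters are shown for the patterns described further on, from RefSeq on GRCh38.p14, 5′ to 3′, in lower case with every CG dinucleotide in capitals. SNHG8 (chr4:118278512-118278811, plus strand), a snoRNA host gene, MIR17HG (chr13:91347437-91347736, plus strand), the host of the miR-17-92 cluster, and ATP8B1-AS1 (chr18:57630081-57630380, plus strand) stand for CpG-rich promoters open in all 12 libraries. They held 29, 42 and 27 CG dinucleotides.
SNHG8: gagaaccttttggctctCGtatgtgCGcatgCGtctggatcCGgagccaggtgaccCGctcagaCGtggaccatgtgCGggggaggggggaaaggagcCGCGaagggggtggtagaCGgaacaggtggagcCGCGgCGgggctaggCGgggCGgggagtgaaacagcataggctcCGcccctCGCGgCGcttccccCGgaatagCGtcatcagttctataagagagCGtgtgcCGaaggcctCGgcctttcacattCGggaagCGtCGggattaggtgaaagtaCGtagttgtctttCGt
MIR17HG: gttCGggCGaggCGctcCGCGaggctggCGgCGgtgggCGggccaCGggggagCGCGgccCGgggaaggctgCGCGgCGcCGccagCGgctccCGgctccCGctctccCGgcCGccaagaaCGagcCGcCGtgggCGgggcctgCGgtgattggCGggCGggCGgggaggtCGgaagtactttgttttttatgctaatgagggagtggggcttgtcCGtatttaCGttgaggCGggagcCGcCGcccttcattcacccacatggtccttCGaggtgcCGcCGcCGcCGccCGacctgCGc
ATP8B1-AS1: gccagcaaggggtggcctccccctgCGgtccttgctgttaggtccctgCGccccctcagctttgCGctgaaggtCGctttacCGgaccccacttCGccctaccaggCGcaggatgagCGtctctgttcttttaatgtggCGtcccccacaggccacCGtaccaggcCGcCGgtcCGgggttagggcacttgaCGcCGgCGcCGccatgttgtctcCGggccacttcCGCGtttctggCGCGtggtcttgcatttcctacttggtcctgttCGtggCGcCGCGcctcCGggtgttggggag

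MIR181A1HG (chr1:198937380-198937679, minus strand), a host of miR-181a and miR-181b, and GP6-AS1 (chr19:55005977-55006276, plus strand), named for the platelet collagen receptor gene GP6, were open in all 12 libraries with 0 and 5 CG dinucleotides. The peak summits of both lay inside the printed stretch in all 12 libraries.
MIR181A1HG: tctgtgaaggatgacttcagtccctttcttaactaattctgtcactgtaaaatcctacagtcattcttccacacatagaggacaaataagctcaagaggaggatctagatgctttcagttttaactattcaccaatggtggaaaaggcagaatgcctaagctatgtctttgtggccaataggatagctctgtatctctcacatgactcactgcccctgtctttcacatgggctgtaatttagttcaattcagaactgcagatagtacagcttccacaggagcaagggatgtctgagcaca
GP6-AS1: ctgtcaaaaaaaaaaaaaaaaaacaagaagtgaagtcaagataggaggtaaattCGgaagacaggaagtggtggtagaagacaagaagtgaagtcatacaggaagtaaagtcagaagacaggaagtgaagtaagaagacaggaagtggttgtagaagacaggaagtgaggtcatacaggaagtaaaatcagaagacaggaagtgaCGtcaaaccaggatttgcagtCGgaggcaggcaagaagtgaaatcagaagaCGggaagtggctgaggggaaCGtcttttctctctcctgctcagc

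FAM218A (chr4:164956698-164956997, plus strand, 16 CG dinucleotides) was open in the 4 MV4-11 libraries and in no other. LINC02913 (chr9:129320766-129321065, plus strand, 15 CG dinucleotides) and PURPL (chr5:27472042-27472341, plus strand, 0 CG dinucleotides), a p53-induced lncRNA, were open in all MOLM13 and MV4-11 libraries and in none of OCI-AML3. DKFZp451B082 (chr6:163346984-163347283, minus strand, 8 CG dinucleotides) lacked a peak in the treated libraries of MOLM13 and of OCI-AML3 and had one in each of their controls. Its window was open in 6 libraries, so part of the MV4-11 libraries were open too. The summit lay inside the printed stretch in 3 libraries.
FAM218A: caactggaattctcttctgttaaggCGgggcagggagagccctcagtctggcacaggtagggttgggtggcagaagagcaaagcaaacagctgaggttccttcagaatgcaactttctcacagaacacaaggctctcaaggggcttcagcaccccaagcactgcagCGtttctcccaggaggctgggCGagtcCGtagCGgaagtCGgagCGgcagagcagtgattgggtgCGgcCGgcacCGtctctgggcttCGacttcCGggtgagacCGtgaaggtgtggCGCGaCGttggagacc
LINC02913: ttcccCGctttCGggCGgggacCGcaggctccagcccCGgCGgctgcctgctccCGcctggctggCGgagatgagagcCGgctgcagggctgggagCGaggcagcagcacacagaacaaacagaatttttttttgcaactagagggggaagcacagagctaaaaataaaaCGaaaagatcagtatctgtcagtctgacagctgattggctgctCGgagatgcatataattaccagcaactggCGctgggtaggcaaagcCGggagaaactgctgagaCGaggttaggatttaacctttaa
PURPL: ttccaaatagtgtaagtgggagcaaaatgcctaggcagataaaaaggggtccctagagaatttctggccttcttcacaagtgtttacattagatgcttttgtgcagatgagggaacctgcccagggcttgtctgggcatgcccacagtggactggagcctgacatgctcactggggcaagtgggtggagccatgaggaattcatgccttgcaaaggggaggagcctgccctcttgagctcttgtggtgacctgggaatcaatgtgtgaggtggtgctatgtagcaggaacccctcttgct
DKFZp451B082: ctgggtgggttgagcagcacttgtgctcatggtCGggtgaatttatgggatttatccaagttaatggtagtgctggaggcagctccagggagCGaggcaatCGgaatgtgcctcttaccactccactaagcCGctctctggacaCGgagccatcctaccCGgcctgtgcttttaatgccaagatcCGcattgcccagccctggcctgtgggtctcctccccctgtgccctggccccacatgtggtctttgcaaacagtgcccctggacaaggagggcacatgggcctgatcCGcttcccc

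Some mature microRNAs of the host genes described further on are shown, also from RefSeq, with the seed (bases 2 to 8) in capitals because the seed pairs with target messenger RNAs. In the miR-17-92 cluster of MIR17HG, miR-17-5p and miR-20a-5p share 1 seed and miR-19a-3p and miR-19b-3p another. MIR181A1HG and MIR181A2HG both give miR-181a-5p and miR-181b-5p, which have the same seed, and DLEU2 gives miR-15a-5p and miR-16-5p, which share theirs. MIR155HG hosts miR-155, a microRNA of activated immune cells, and MIR3142HG hosts miR-146a, a microRNA that restrains NF-kappaB signalling.
hsa-miR-17-5p: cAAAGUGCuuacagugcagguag
hsa-miR-20a-5p: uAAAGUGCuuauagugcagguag
hsa-miR-19a-3p: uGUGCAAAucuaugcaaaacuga
hsa-miR-19b-3p: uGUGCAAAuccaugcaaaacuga
hsa-miR-181a-5p: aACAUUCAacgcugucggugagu
hsa-miR-181b-5p: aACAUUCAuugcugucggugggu
hsa-miR-15a-5p: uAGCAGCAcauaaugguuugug
hsa-miR-16-5p: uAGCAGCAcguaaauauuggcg
hsa-miR-155-5p: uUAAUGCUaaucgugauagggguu
hsa-miR-146a-5p: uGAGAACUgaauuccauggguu

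Stand-alone lncRNA promoters were open far less often than protein-coding promoters in every library. Between 12.9% and 21.2% of them had a peak, against 59.3% to 66.2% of protein-coding promoters. In percent of the 9274 windows, the values were 16.4 and 17.2 with VTP50469 and 14.5 and 16.1 in controls of MOLM13, 19.1 and 21.2 with VTP50469 and 19.9 and 20.7 in controls of MV4-11, and 14.0 and 12.9 with VTP50469 and 13 and 16.0 in controls of OCI-AML3. The 4 MV4-11 libraries were the highest, and every value of the lncRNA promoters lay below every value of the protein-coding ones. The mean difference was -45.9 percentage points over the 12 libraries (exact sign-flip permutation test, two-sided, p = 0.000488, the smallest the 12 libraries allow), with a negative difference in 12 of 12 libraries. Libraries of a line are not independent, and over the means of the 3 lines the same test could not go below its p of 0.25. LncRNA promoters within 5 kb of a protein-coding start, which were left out of the definition, had a peak in 64.1% to 70.5%.

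**Figure D1:**
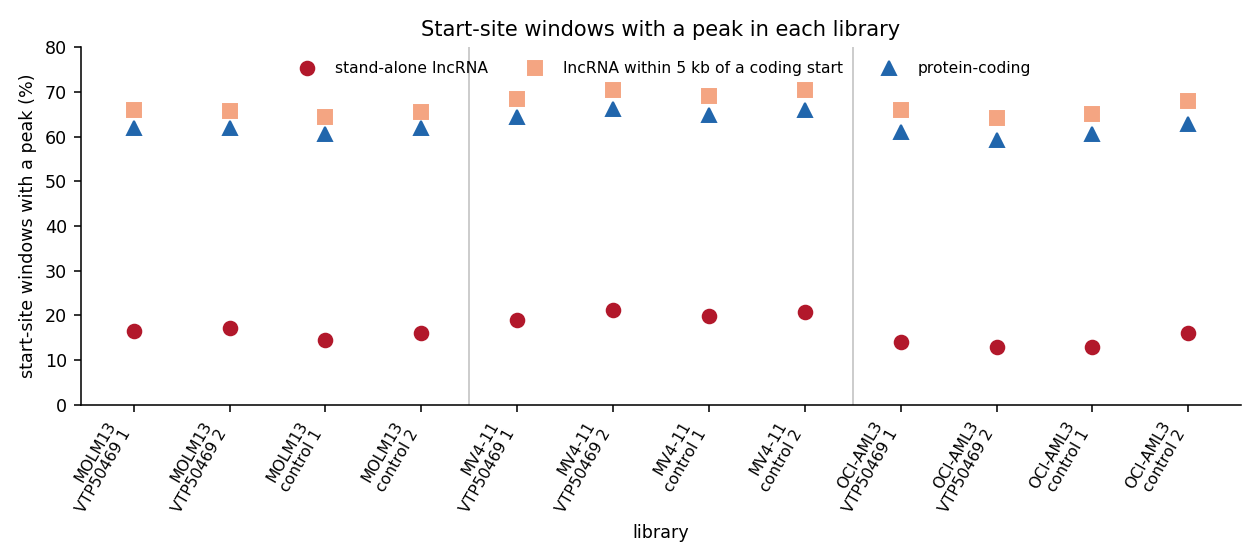
Share of start-site windows with a peak, in percent, in each of the 12 libraries, for stand-alone lncRNA promoters, lncRNA promoters within 5 kb of a protein-coding start and protein-coding promoters. The stand-alone lncRNA promoters lie between 12.9% and 21.2% in every library and the other 2 classes above 59%.

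The peaks at these promoters were also weaker and lay farther from the start site. The fold enrichment of the strongest peak, which sets the reads at its summit against those expected locally, had a median over open windows of 6.27 to 7.84 in the 12 libraries, against 9.15 to 11.4 at protein-coding promoters. Behind such a peak stood a median of 12 to 18 reads at the summit, so that depth was low. The median distance from summit to start was 222.5 to 282 bp, against 106 to 113 bp at protein-coding promoters. In 47.7% to 53.3% of open windows the summit lay within 250 bp of the start, against 70.4% to 73.1% at protein-coding promoters. None of the 12 libraries of the lncRNA promoters overlapped the protein-coding values in fold, distance or share. The libraries had 67424 to 141695 peaks on chromosomes 1 to 22, with the most in MV4-11 (112922 to 141695), so the share of open windows moved with the number of peaks; per 10000 peaks there were 156 and 139 open lncRNA windows with VTP50469 and 151 and 149 in controls of MV4-11, against a range of 158 to 177 in the other lines.

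Of the 9274 windows, 657 (7.08%) were open in all 12 libraries, 2729 in 1 to 11 and 5888 in none. Protein-coding promoters were open in all 12 libraries in 9744 of 18783 windows. Among the windows open in part of the libraries, 1004 were open in 1 library alone and 140 in 11, with 118 to 338 at every number between them. Fold was higher where more libraries were open, with a median of 4.11 (quartiles 3.68 and 4.62) and 6 summit reads where 1 library had a peak, 7.01 (quartiles 6.10 and 8.47) and 13 reads at 11 libraries, and 9.25 (quartiles 7.67 and 11.3) and 24 reads at 12. The median distance of the summit from the start was 405 bp at 1 library and 166 bp at 12. Peaks seen in few libraries were thus near the fewest reads of any peak at these promoters, 4, and a window open in 1 library cannot be told from one that missed the threshold in the others. The limit of 5 kb was not a sharp step: the 134 windows at 5 to 6 kb from a protein-coding start had a peak in a median of 21.6% (13.4% to 31.3% over libraries), and the 132 lncRNA windows at 4 to 5 kb, just left out, in 15.9% (13.6% to 18.9%).

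**Figure D2:**
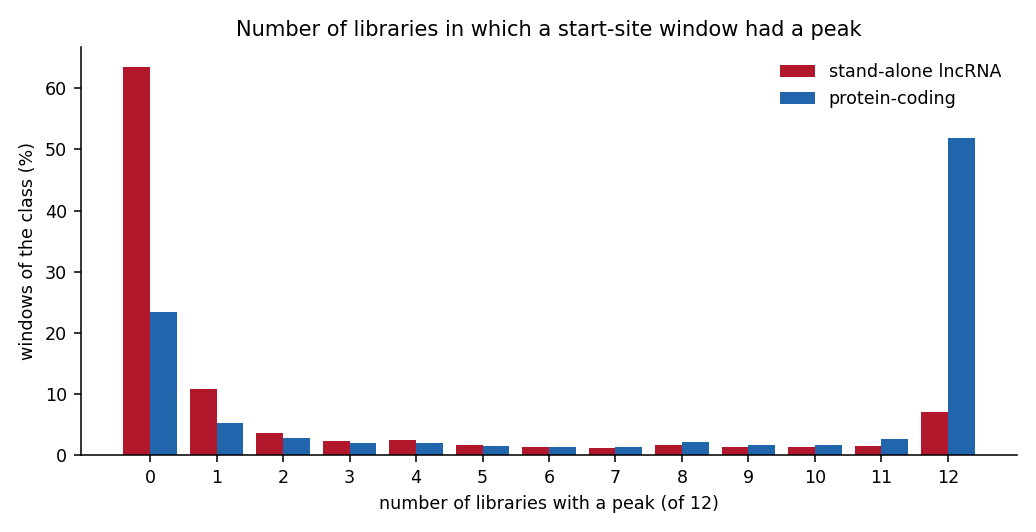
Number of libraries in which a window had a peak, from 0 to 12, for stand-alone lncRNA promoters (9274 windows) and protein-coding promoters (18783 windows), as percent of windows of the class. Most stand-alone lncRNA promoters lie at 0 libraries (5888 windows) and 657 lie at 12, whereas 9744 protein-coding promoters lie at 12.

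The stand-alone promoters open in all 12 libraries differed from the rest in sequence. Sequence starting at the same base was at hand for 7910 of the 9274 windows. Of 756 CpG-rich promoters 31.3% were open in all 12 libraries, against 4.56% of 7154 CpG-poor ones. The median ratio of observed to expected CpG was 0.545 for those open in all 12, 0.242 for those open in 1 to 11 and 0.202 for those never open, and 42.1%, 9.57% and 5.89% of these groups were CpG-rich. Among protein-coding promoters open in all 12 libraries, 87.9% were CpG-rich. At equal CpG class the gap to protein-coding genes remained: CpG-rich lncRNA promoters were open in all 12 libraries in 31.3%, against 76.5% for CpG-rich protein-coding promoters, and CpG-poor ones in 4.56%, against 19.2%. These shares are descriptions over windows, which are not replicates.

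Distance, gene kind and annotation also went with openness. The share open in all 12 libraries was 15.3% at 5 to 10 kb from the nearest protein-coding start, 10.7% at 10 to 50 kb, 5.88% at 50 to 200 kb and 2.11% beyond 200 kb. Host genes of small RNAs (symbols in HG) reached 33.8% of 80 windows, antisense genes (AS) 9.44% of 975, intergenic genes (LINC) 8.63% of 2108 and genes with only a LOC number 5.27% of 5576. Genes with a curated RefSeq transcript were open in all 12 libraries in 9.97% of 3992 windows, and genes known only from predicted transcripts in 4.90% of 5282. Windows between protein-coding genes reached 7.69%, windows inside one on its opposite strand 5.52% and on its own strand 4.04%. Within curated genes the CpG classes still differed, with 37.4% for CpG-rich and 6.04% for CpG-poor promoters. How much each feature added to the others was not tested.

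**Figure D3:**
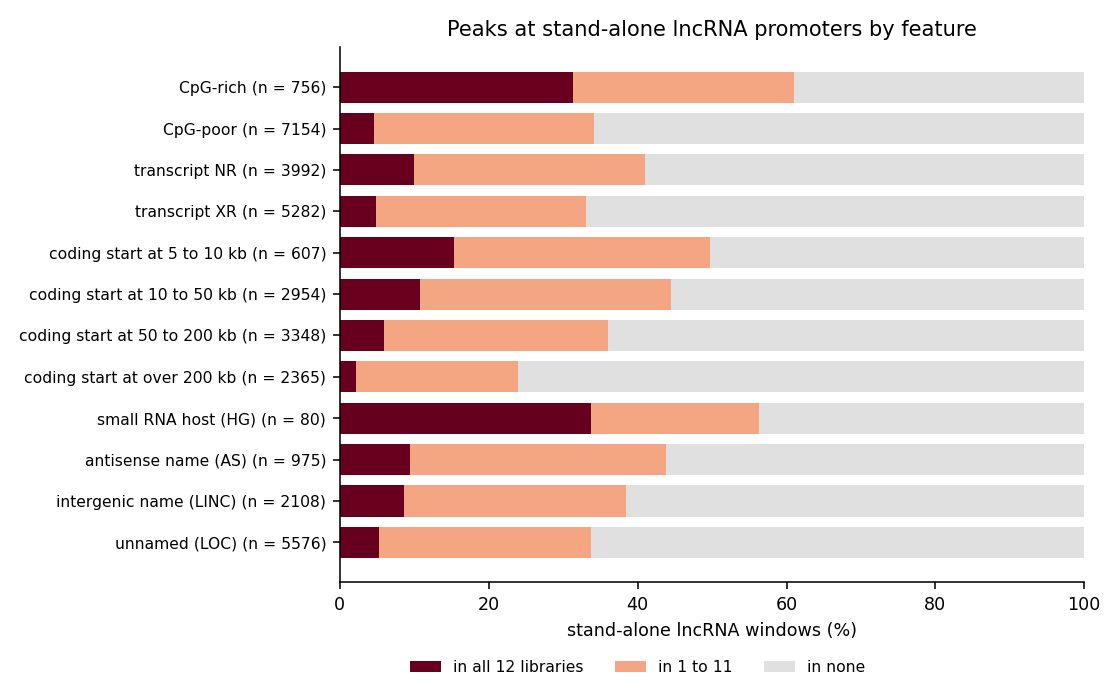
Percent of stand-alone lncRNA promoter windows open in all 12 libraries, in 1 to 11 and in none (stacked bars), by CpG class, RefSeq transcript (NR curated, XR predicted), distance to the nearest protein-coding start and kind of gene name, with the number of windows in each class. For all 12 libraries, host genes of small RNAs (33.8%) and CpG-rich promoters (31.3%) lie highest and windows beyond 200 kb (2.11%) lowest.

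Short motifs were counted on both strands of the 300 bases. The GC box GGGCGG, bound by SP and KLF factors, was in 41.2% of the 563 lncRNA promoters open in all 12 libraries, 9.71% of the 5007 never open and 44% of all 23904 promoters. The ETS letters CCGGAAG were in 10.3%, 2.38% and 10.7% of the same groups, and the CREB letters TGACGTCA in 3.20%, 0.359% and 2.03%. All of them hold CG, and the differences also stood within a CpG class: among CpG-poor lncRNA promoters GGGCGG was in 20.6% of those open in all 12 and 6.66% of those never open and CCGGAAG in 5.83% and 1.85%, and among CpG-rich ones TGACGTCA was in 5.06% and 1.02%. The NRF1 motif, which holds CG too, did not follow, with 0.533% of promoters open in all 12, 0.479% of those never open and 1.38% of all promoters, and within CpG-rich lncRNA promoters 1.27% and 6.78%. The AP-1 letters TGANTCA, which hold none, were in 16.2% of promoters open in all 12, 11.6% of those never open and 7.81% of all promoters. Within CpG-poor lncRNA promoters, TGANTCA was in 23.9% of the 326 open in all 12 libraries and in 12.2% of the 4712 never open, and the PU.1 letters GAGGAAGT in 6.75% and 1.97%, where all promoters had 2.46%. PU.1, encoded by SPI1, is a main transcription factor of myeloid cells. The letters of other blood cell factors differed less or the other way in the same CpG-poor groups, with RUNX (TGTGGTT) in 7.36% and 6.71%, CEBP (TTGCNNAA) in 18.4% and 17.2% and AGATAA of the GATA factors in 13.5% and 20.0%, where all promoters had 4.33%, 10.7% and 10.7%. The TATA box TATAAA ran the other way, with 7.82% of promoters open in all 12, 21.2% of those never open and 12.3% of all promoters. The CCAAT box was about as frequent in each, at 32.3%, 37.2% and 35.8%. TGACGTCA was found in the GP6-AS1 sequence above, GGGCGG in those of SNHG8, MIR17HG and LINC02913, and TGANTCA in that of MIR181A1HG. A match of letters is a description and not a binding site.

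Of the 27 snoRNA host genes listed, 14 had a stand-alone promoter, and these 14 had a peak in all 12 libraries, with a median fold of 12.4, where 7.08% of all stand-alone promoters were open in all 12. The list did not hold every SNHG gene: among stand-alone promoters outside it, looked up after the values were seen, SNHG33 was open in 12 libraries, SNHG28 in 8, with none in MOLM13, and SNHG27 in 0. SnoRNAs guide the chemical modification of ribosomal RNA, and their host genes are transcribed in nearly all dividing cells. At SNHG15 the fold was 15.7 and 19.3 with VTP50469 and 16.6 and 14.7 in controls of MOLM13, 17.6 and 14.3 with VTP50469 and 16.6 and 15.6 in controls of MV4-11, and 14.5 and 16.0 with VTP50469 and 15.6 and 17.8 in controls of OCI-AML3. At SNHG8 it was 9.14 and 11.2 with VTP50469 and 9.39 and 8.48 in controls of MOLM13, 12.8 and 10.8 with VTP50469 and 10.2 and 11.3 in controls of MV4-11, and 9.91 and 10.9 with VTP50469 and 10.7 and 9.20 in controls of OCI-AML3. Both sets of values overlapped between treated and control libraries in every line. SNHG32, a CpG-poor one, was the weakest with a median of 7.78 (5.48 to 10.0), and SNHG30 (15.3, 11.5 to 21.3), SNHG16 (14.6, 11.3 to 18.9) and DANCR (13.2, 9.90 to 17.4) were among the stronger.

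Of 14 microRNA host genes 5 were open in all 12 libraries, 3 in part of them and 6 in none. At MIR17HG, whose microRNAs promote proliferation, the fold was 7.79 and 7.83 with VTP50469 and 7.28 and 8.30 in controls of MOLM13, 9.76 and 8.89 with VTP50469 and 7.54 and 7.63 in controls of MV4-11, and 9.58 and 7.97 with VTP50469 and 8.60 and 10.6 in controls of OCI-AML3. At MIR155HG it was 9.33 and 10.0 with VTP50469 and 8.13 and 9.37 in controls of MOLM13, 6.99 and 8.41 with VTP50469 and 9.05 and 9.33 in controls of MV4-11, and 8.72 and 6.41 with VTP50469 and 8.38 and 9.23 in controls of OCI-AML3. Values ran from 7.28 to 10.6 at MIR17HG and from 6.41 to 10.0 at MIR155HG, and treated and control libraries overlapped in MOLM13 and OCI-AML3. In MV4-11 both treated values lay above both controls at MIR17HG and below them at MIR155HG. MIR181A1HG reached a median of 11.7 (7.18 to 19.5), MIR181A2HG 10.4 (8.39 to 15.2) and MIR34AHG, the host of the p53-induced miR-34a, 5.58 (4.09 to 8.35). DLEU2, the host of miR-15a and miR-16 in a region often deleted in leukaemia, had a peak in 11 libraries, and MIR193BHG and MIR3142HG had one in 10. MIR9-1HG, MIR29B2CHG, MIR100HG, MIR4435-2HG, MIR99AHG and MIR124-1HG had none. Several of these genes have further start sites that were not used here.

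Among 10 lncRNAs of nuclear bodies or imprinted regions, KCNQ1OT1, MALAT1 and NEAT1 were open in all 12 libraries. KCNQ1OT1, an imprinted antisense transcript that silences neighbouring genes, had a fold of 10.2 and 9.08 with VTP50469 and 9.30 and 9.64 in controls of MOLM13, 11.5 and 9.28 with VTP50469 and 10.0 and 10.9 in controls of MV4-11, and 10.8 and 8.38 with VTP50469 and 10.2 and 9.84 in controls of OCI-AML3. MALAT1, a nuclear speckle RNA, had a median of 11.3 (6.89 to 14.6) and NEAT1, the scaffold of paraspeckles, one of 5.49 (4.68 to 8.29). NORAD, which binds Pumilio proteins, was open in 10 libraries, and 2 of the 4 OCI-AML3 libraries lacked its peak. OIP5-AS1 was open in 8 libraries, and the imprinted H19 in 5 and AIRN in 1. MEG3, MEG8 and PWRN1 had none.

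The 16 stand-alone promoters of lncRNAs described in myeloid cells or leukaemia were open in all 12 libraries in 8 cases, in part in 4 and never in 4. LUCAT1, a lncRNA induced by stress and interferon, was the strongest of them, with a fold of 16.8 and 17.1 with VTP50469 and 11.0 and 18.8 in controls of MOLM13, 14.2 and 13.4 with VTP50469 and 16.3 and 14.3 in controls of MV4-11, and 10.4 and 11.8 with VTP50469 and 7.59 and 16.3 in controls of OCI-AML3. LINC01003 reached a median of 11.6 (9.12 to 13.5), PVT1, the neighbour of MYC, 7.99 (5.13 to 10.1), LINC00173 7.30 (5.28 to 10.4) and EGOT, an eosinophil granule lncRNA, 7.21 (4.99 to 9.27). CCDC26, a lncRNA gene altered in AML, had a peak in MOLM13 alone, of 7.32 and 5.41 with VTP50469 and 5.20 and 5.62 in controls. Of 9 inflammation lncRNAs, HIF1A-AS3 (13.9, 10.6 to 17.4), CHROMR and MIR3945HG were open in all 12, and 4 were never open. Of 13 lymphoid lncRNAs 2 were open in all 12 (LINC00926, 3.68 to 6.22, and TRG-AS1 of the T cell receptor gamma locus, 10.9 to 16.7) and 7 never, and of 18 lncRNAs of brain and other tissues 2 (DLGAP1-AS2 and MIAT) and 10. The lymphoid and brain lists thus had the lowest shares open in all 12 libraries, 15.4% and 11.1%, both above the 7.08% of all stand-alone promoters, and these lists hold well-annotated genes, which were open more often in general.

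The highest median folds of all 657 windows open throughout were at LOC107986997 (24.7), GP6-AS1 (19.4), ATP8B1-AS1 (18.2), LINC00663 (17.3), LOC105274304 (17.1) and LOC124901764 (16.7). LOC107986997 had 26.9 and 30.0 with VTP50469 and 24.7 and 24.6 in controls of MOLM13, 35.6 and 25.2 with VTP50469 and 15.0 and 26.8 in controls of MV4-11, and 20.8 and 14.1 with VTP50469 and 18.4 and 21.1 in controls of OCI-AML3. It starts at position 40991831 of chromosome 9, and its nearest protein-coding gene, FOXD4L6, belongs to a family with near-identical copies on that chromosome, so the value is uncertain. LINC00663 had 17.2 and 19.8 with VTP50469 and 18.3 and 14.4 in controls of MOLM13, 19.1 and 16.6 with VTP50469 and 17.4 and 16.9 in controls of MV4-11, and 15.5 and 16.0 with VTP50469 and 17.6 and 18.1 in controls of OCI-AML3, close to even across lines, whereas ATP8B1-AS1 had 17.8 and 15.3 with VTP50469 and 17.1 and 19 in controls of MOLM13, 22 and 18.5 with VTP50469 and 19.5 and 20.1 in controls of MV4-11, and 8.16 and 11.9 with VTP50469 and 12.1 and 19.2 in controls of OCI-AML3, with the lowest values in OCI-AML3, where both treated libraries lay below both controls.

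VTP50469 did not move the share of open stand-alone promoters beyond the spread between libraries. The mean of treated minus control over the 3 lines was 0.0935 percentage points (p = 0.898 in a two-sided exact permutation test that kept the lines apart). By line it was 1.51 points in MOLM13, with no overlap of the groups. It was -0.167 points in MV4-11 and -1.06 points for OCI-AML3, each with overlapping groups. The number of peaks per library differed by 13203 in MOLM13, 1656 in MV4-11 and by -9282 for OCI-AML3, that is the same way as the share in MOLM13 and OCI-AML3, and its part in the shares was not tested. Protein-coding promoters changed by -0.353 points (exact permutation p = 0.583). Over 7 such measures, including the median fold (-0.0693, exact permutation p = 0.630) and the gap between the classes (0.447 points, exact permutation p = 0.120), the smallest adjusted p was 0.843. The sign of the share depended on the window, on the peak threshold and on the peak number.

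Some windows had a peak in both libraries of one condition and in neither of the other. In MOLM13, 33 stand-alone promoters lost their peak in this sense with VTP50469 and 64 gained one, of 2155 with any peak, which is 1.53% and 2.97%. Over all start-site windows with a peak in MOLM13 these shares were 0.692% and 1.24%. In MV4-11, 60 (2.40%) were lost and 36 (1.44%) gained of 2498, where all windows had 0.906% and 0.555%. In OCI-AML3, 59 (2.83%) were lost and 33 (1.59%) gained of 2082, where all windows had 1.43% and 0.524%. Counted this way the stand-alone promoters were above the share of all windows in each line and direction. As a share of all windows of a class, open or not, they were not: 0.356% were lost and 0.690% gained in MOLM13, against 0.399% and 0.697% of protein-coding promoters, 0.647% and 0.388% in MV4-11, against 0.490% and 0.298%, and 0.636% and 0.356% for OCI-AML3, against 0.841% and 0.256%. The stand-alone promoters were thus higher in MV4-11 and for gains in OCI-AML3 and lower in the other cases, and the peaks that came or went were weaker than those that stayed. The median of the lower −log10 q of the 2 libraries was 2.72 to 3.90 at lost and gained windows, against 7.67 to 10.5 for the lowest value of the stand-alone promoters open in all 4 libraries of a line. A peak in 1 control and 1 treated library, which is no change with treatment and can come about in 4 ways where a loss can in 1, was seen at 143 windows for MOLM13, 151 for MV4-11 and 180 for OCI-AML3. The direction followed the number of peaks in part, with more gained in MOLM13, where treated libraries had more peaks, and more lost in OCI-AML3, where they had fewer, but not in MV4-11, where more were lost although the treated libraries averaged 1656 more peaks. Leaving out 1 library in turn loosens the criterion by its construction, and lost windows then reached up to 178 for MOLM13, 198 for MV4-11 and 377 for OCI-AML3 and gained windows up to 281, 254 and 226 in the same lines. With an equal number of peaks in every library the gained windows of MOLM13 came to 39. The shares over all windows in these other settings are not given here.

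**Figure D4:**
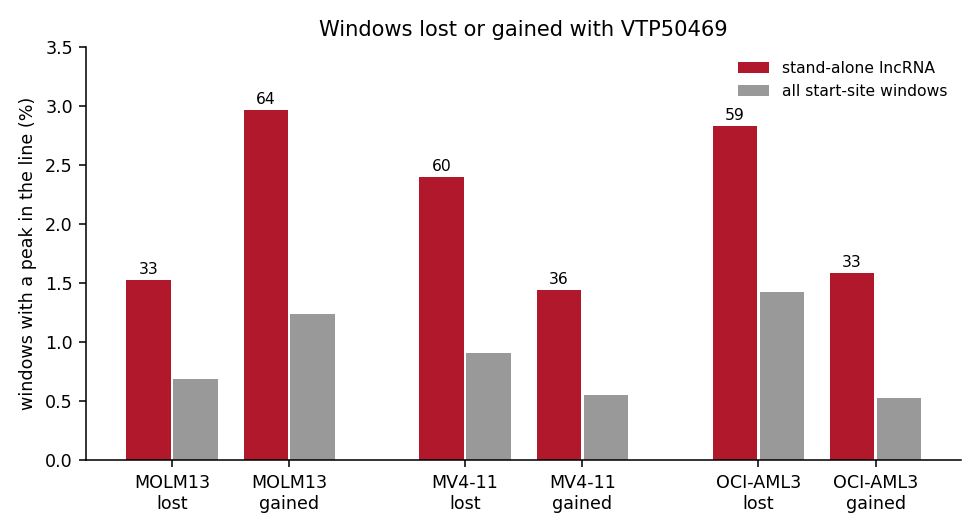
Stand-alone lncRNA promoters lost and gained with VTP50469 in each line, as percent of windows of the class with any peak in the line, beside the same share over all start-site windows. The lncRNA values run from 1.44% to 2.97% and those of all windows from 0.524% to 1.43%.

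Losses and gains were ranked by the lower −log10 q of the 2 libraries with the peak. The largest loss was at LINC03092 in MV4-11, 360.3 kb from TCF4 on chromosome 18 (start at position 55996211), where the controls had folds of 11.6 and 14.6, a −log10 q of 22.6 and 33.4 and 27 and 36 summit reads, and neither treated library had a peak. In MOLM13 and OCI-AML3 its window had a peak in 1 control library of each and in no treated one. The median summit lay 1202 bp downstream of the start, outside the window that the peak overlapped. The largest gain was at LOC124906210 in MV4-11, inside ITPR1 on the opposite strand (start at position 4710352 of chromosome 3), with folds of 8.39 and 12.3, a −log10 q of 10.9 and 20.1 and 13 and 20 reads with VTP50469 and no peak in controls. All 4 MOLM13 libraries were open there, and the median summit lay at -1187 bp from the start. In MOLM13 the largest gain was at LOC105376415, with folds of 8.29 and 8.83, a −log10 q of 10.8 and 11.8 and 14 reads in each treated library. The largest loss there was at DKFZp451B082, whose sequence stands above, with control folds of 5.06 and 5.35 and a −log10 q of 5.15 and 5.97. OCI-AML3 had its largest loss at LOC105374795 (control folds 5.96 and 7.98, −log10 q 6.41 and 11.0) and its largest gain at LINC02725 (treated folds 7.73 and 6.74, −log10 q 9.11 and 7.03), a gene whose window was open in all 8 libraries of the other lines.

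Few windows moved alike in more than 1 line, and none did in all 3. DKFZp451B082 was lost in MOLM13 and in OCI-AML3, where the controls had folds of 4.46 and 4.74. LOC107986606 was lost in MOLM13 (control folds 5.33 and 7.56) and in MV4-11 (6.75 and 5.14), and LOC400627 in the same lines (control folds 5.68 and 3.66, and 4.53 and 7.14). JAKMIP2-AS1 was gained in MV4-11 (treated folds 6.42 and 6.75) and also in OCI-AML3 (5.41 and 6.24), although both MOLM13 controls were open there, and LOC105374683, inside CDH12 on its opposite strand, in the same 2 lines (treated folds 4.80 and 4.91, and 5.33 and 5.54). The folds of these 5 windows in the libraries that decided the call ran from 3.66 to 7.56. In contrast, LOC105375208, LOC124902895, MYOZ3-AS1 and SH3PXD2A-AS1 each moved in opposite directions in 2 lines, with values given further on. The share of all start-site windows that moved alike in 2 lines is not given here. MIR31HG, the host of miR-31, was gained in MV4-11 (treated folds 7.47 and 6.02) and open in all 4 OCI-AML3 libraries. TLX1NB was lost in MOLM13 (control folds 4.78 and 9.39) and LOC101926907, 30.4 kb from the AP-1 gene JUN, in OCI-AML3 (control folds 5.84 and 5.22). No promoter of the 7 lncRNA gene lists was lost or gained in any line.

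Genes that menin and MLL1 fusions are known to keep active were looked at for stand-alone lncRNA neighbours. Of 21 such genes 8 had a stand-alone lncRNA start within 100 kb, with 10 windows in all. These 10 included 4 with a peak in any library (40.0%, against 36.5% of all stand-alone promoters). PVT1 near MYC and LOC100130992 near BMI1 were open in all 12 libraries. LOC100130992 had 6.49 and 6.56 with VTP50469 and 6.14 and 8.19 in controls of MOLM13, 10.5 and 9.51 with VTP50469 and 9.01 and 10.7 in controls of MV4-11, and 5.69 and 6.48 with VTP50469 and 6.27 and 5.94 in controls of OCI-AML3, and the groups overlapped in each line. LOC105376447, also near BMI1, was gained in MV4-11 with folds of 5.40 and 6.75 and a −log10 q of 4.99 and 7.52. RUNX1-IT1 near RUNX1 had a peak in 1 library, and the windows near MEIS1 (2), MYB, BCL2, LAMP5 and TCF4 had none.

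The strength of peaks present in every library was compared by ranking the fold within a library. Ranks were turned into normal scores, whose unit is 1 SD of all peak regions, and fitted with limma over all regions, with Benjamini-Hochberg adjustment. In MOLM13, 0 of 1031 stand-alone promoter regions and 0% of all 40663 regions passed an adjusted p of 0.05. The same held for 0 of 1451 regions in MV4-11 (all: 0% of 68527), 0 of 820 in OCI-AML3 (0% of 30339) and 0 of 645 over the 3 lines (0% of 22845). The smallest adjusted p in limma was 0.880, 0.736, 0.806 and 0.689. At an unadjusted p under 0.05 there were 42, 80, 46 and 43 stand-alone regions, or 4.07%, 5.51%, 5.61% and 6.67%, where all regions had 5.60%, 6.59%, 5.81% and 6.10%. The median shift of the stand-alone regions was between -0.0151 and 0.0107 SD in the 4 fits, and of all regions between -0.00759 and 0.0197 SD.

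Some promoters at the top of these fits are given as values. LOC105377727, 24.5 kb from SH3PXD2B, had 5.23 and 8.76 with VTP50469 and 6.01 and 9.93 in controls of MOLM13, 5.87 and 5.45 with VTP50469 and 10.5 and 11.9 in controls of MV4-11, and 5.82 and 5.25 with VTP50469 and 7.80 and 12.1 in controls of OCI-AML3. Over the lines its shift was -1.22 ± 0.28 (SE) SD, with an adjusted p of 0.689 (limma). Its treated values lay below its controls without overlap in MV4-11 and OCI-AML3, and its MOLM13 groups overlapped. LOC100288069 and LINC01409 share a peak on chromosome 1, with 5.84 and 7.26 with VTP50469 and 11.8 and 13.5 in controls in MOLM13 and 24.6 and 27.0 with VTP50469 and 13.2 and 16.1 in controls in MV4-11. Treated values were lower in MOLM13 and higher in MV4-11, each without overlap and neither past the test (adjusted p = 0.880 and 0.736, limma). LINC02139 had, in the region shared by the 4 OCI-AML3 libraries, folds of 3.30 and 4.09 with VTP50469 and 9.29 and 7.55 in controls, although a stronger peak of 4.77 and 6.64 stood elsewhere in its window in the treated libraries (shift -2.52 ± 0.53 (SE) SD, adjusted p = 0.806, limma).

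Presence was next compared between the lines. Fisher's exact test set the 4 libraries of a line against the other 8, over the 8159 windows open in 1 to 11 libraries. Of these, 2729 were stand-alone promoters. An unadjusted p under 0.05 was reached by 23 of them more often open in MOLM13 and 36 less often. The counts were 197 and 7 for MV4-11, and 43 and 166 for OCI-AML3. The shares over all windows at that p are not given here, so these counts are not read as particular to lncRNA promoters. After adjustment Fisher's exact test called 0 windows (smallest adjusted p = 0.0813). Limited to windows open in 4 to 8 libraries, a limit set after that result was seen, 783 of 2656 windows were stand-alone promoters. A window open in all 4 libraries of a line and none of the other 8, or the reverse, then had an adjusted p of 0.0265 (Fisher's exact test, p = 0.00202). Windows open in 1 line alone meet this limit only through that line, and the limit left fewer windows to adjust over. The adjusted p is therefore no support, and the counts that follow are descriptions. In MV4-11, 75 of 783 (9.58%) were open in that line alone, where all windows had 7.42%, and 4 (0.511%) in both other lines but not in MV4-11, where all had 1.05%. In OCI-AML3, 16 (2.04%) were open there alone, where all windows had 2.52%, and 53 (6.77%) were missing there alone, where all had 5.72%. In MOLM13, 10 (1.28%) were open there alone and 18 (2.30%) were missing there alone, where all windows had 1.13% and 5.05%. MV4-11 had the most peaks per library and OCI-AML3 the fewest. The windows missing in 1 line alone were in the reverse order of the peak numbers, but those open in 1 line alone were not in their order, with more in OCI-AML3 than in MOLM13, and the part of the peak number was not tested. With an equal number of peaks in every library, the windows open in MV4-11 alone fell to 26, those open in OCI-AML3 alone came to 30 and those of MOLM13 to 16. Shares over all windows at that setting are not given here, so these counts are not read as particular to lncRNA promoters. With any 1 library left out the exact test could not pass and called 0 in every line.

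Windows open in MV4-11 alone were ranked by their lowest −log10 q, and some from the top are given as values. Being picked by that value, they do not describe the other windows open in MV4-11 alone. ZNF790-AS1, in a zinc finger gene cluster of chromosome 19, had 20.2 and 22.1 with VTP50469 and 21.8 and 21.5 in controls in MV4-11, with a lowest −log10 q of 54.9, and no peak in the other 8 libraries. FAM218A, whose sequence stands above, had 14.1 and 14.9 with VTP50469 and 13.9 and 14.0 in controls with a lowest −log10 q of 29.1. LINC02696 (14.7 and 14.4 with VTP50469 and 11.5 and 13 in controls) and the pair LOC100505715 and ZNF45-AS1, which share a peak (9.67 and 16.1 with VTP50469 and 11.8 and 18.3 in controls), were also open in MV4-11 alone. The treated and control values overlapped at ZNF790-AS1 and at the pair, whereas at FAM218A and LINC02696 both treated values lay above both controls, by little at the first.

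OCI-AML3 alone was open at the pair LINC00939 and LINC02826, which start back to back 361 kb from TMEM132B, with 12.5 and 10.6 with VTP50469 and 8.64 and 8.22 in controls. LOC105372309 near ZNF682 had 12.3 and 16.1 with VTP50469 and 8.49 and 12.7 in controls in that line. MOLM13 alone was open at LINC00604, with 5.84 and 12 with VTP50469 and 7.77 and 6.40 in controls, at LINC01782 (8.30 and 10.8 with VTP50469 and 5.49 and 7.95 in controls), at PCAT18 (6.40 and 7.41 with VTP50469 and 5.18 and 6.40 in controls) and at CCDC26. Several of these values were lower than those of the windows named for MV4-11. In MOLM13 the lowest −log10 q was 5.50 at LINC00604, 5.51 at LINC01782, 5.63 at PCAT18 and 7.55 at CCDC26. The fewest summit reads in a library were 8 at LINC00604, 11 at LINC01782, 13 at PCAT18 and 19 at CCDC26. Treated and control folds overlapped at LINC00604 and LOC105372309, and both treated values lay above both controls at LINC00939 and LINC01782.

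Windows missing in 1 line alone were found at named genes too, and those given here were chosen after their values were seen. MAP3K14-AS1, antisense to the gene of the NF-kappaB inducing kinase, had no peak in MOLM13 and 12.3 and 10.7 with VTP50469 and 11.2 and 9.75 in controls in MV4-11, beside 10.4 and 9.52 with VTP50469 and 9.41 and 14.6 in controls in OCI-AML3. LINC02851 had none in MV4-11, with 9.13 and 9.92 with VTP50469 and 11.0 and 11.5 in controls in MOLM13 and 9.19 and 7.07 with VTP50469 and 10.3 and 13.2 in controls in OCI-AML3. OCI-AML3 lacked a peak at LINC02913, with 9.09 and 9.85 with VTP50469 and 9.14 and 10.2 in controls in MOLM13 and 9.58 and 8.78 with VTP50469 and 8.55 and 13.4 in controls in MV4-11. It also lacked one at PURPL, with 10.0 and 12.2 with VTP50469 and 8.53 and 8.70 in controls in MOLM13 and 13.8 and 7.68 with VTP50469 and 9.98 and 14.7 in controls in MV4-11, and at the inflammation lncRNAs LINC01215 (5.84 to 13.8 in the other lines) and LINC01094 (4.13 to 7.49). Each of these windows was open in the 8 libraries of the other lines, whatever the treatment. All 4 windows missing in MV4-11 alone were CpG-rich, whereas 6.06% of the 66 with sequence open in MV4-11 alone were. The AP-1 letters TGANTCA were in 19.7% of those 66 and in 25.6% of the 43 with sequence missing in OCI-AML3 alone. That is 13 and 11 windows, where the stand-alone promoters open in 1 to 11 libraries had 13%. The GATA letters AGATAA were in 18.2% and 25.6% of the same groups, against 14.8%. The CEBP letters TTGCNNAA went the other way, with 9.09% and 11.6%, against 14.1%.

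Strength between lines was compared over the 22845 regions open in all 12 libraries, 645 of them stand-alone lncRNA promoters. Of these, 16 (2.48%) were higher and 10 (1.55%) lower in MOLM13 than in MV4-11, where all regions had 1.4% and 3.04%. Against OCI-AML3, 19 (2.95%) were higher and 39 (6.05%) lower in MOLM13, where all had 4.13% and 4.78%, and 37 (5.74%) were higher and 58 (8.99%) lower in MV4-11, where all had 7.06% and 6.77% (limma, adjusted p under 0.05). In both directions together, 4.03% of the stand-alone regions passed in MOLM13 minus MV4-11, where all regions had 4.44%. In MOLM13 minus OCI-AML3 it was 8.99%, against 8.91%, and in MV4-11 minus OCI-AML3 14.7%, against 13.8%. In all, 126 of the 645 regions passed in at least 1 contrast. OCI-AML3 differed from both other lines at 20 regions that were higher there, among them EGOT, SNHG5, LARRPM and OLMALINC, and at 11 that were lower. MV4-11 stood apart from both others at 4 higher and 11 lower regions, and MOLM13 at 2 higher and 5 lower. Such counts over all 22845 regions are not given here, so none is read as particular to lncRNA promoters.

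GP6-AS1 had the smallest adjusted p of the stand-alone regions in both contrasts with OCI-AML3, with folds of 18.8 and 22.4 with VTP50469 and 20.1 and 18.1 in controls of MOLM13, 22.4 and 22.2 with VTP50469 and 21.5 and 21.4 in controls of MV4-11, and 9.52 and 6.74 with VTP50469 and 7.35 and 9.24 in controls of OCI-AML3. All 4 OCI-AML3 values lay below all 8 others. Its mean was 19.9 ± 1.90 for MOLM13, 21.8 ± 0.510 for MV4-11 and 8.21 ± 1.38 for OCI-AML3 (SD, n = 4 libraries each), with a shift of 2.82 ± 0.28 (SE) SD for MOLM13 minus OCI-AML3 (adjusted p = 5.35e-05, limma) and 2.68 ± 0.28 (SE) SD for MV4-11 minus OCI-AML3 (adjusted p = 4.95e-05, limma). LOC124904212, 495 kb from LMO4, averaged 13.5 ± 2.92, 14.3 ± 1.49 and 5.23 ± 1.18 in MOLM13, MV4-11 and OCI-AML3 (SD, n = 4 each, adjusted p = 0.00105 for MOLM13 minus OCI-AML3, limma), and again no OCI-AML3 library reached the others. SLC1A3-AS1 was likewise lower in OCI-AML3, at 13.1 ± 1.12, 14.7 ± 0.718 and 7.07 ± 0.655 in the same order of lines (SD, n = 4 each, adjusted p = 0.00365, limma).

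LARRPM ran the other way, with 6.76 ± 0.826 for MOLM13, 7.81 ± 1.29 for MV4-11 and 13.5 ± 3.99 for OCI-AML3 (SD, n = 4 each, adjusted p = 0.00230 for MOLM13 minus OCI-AML3 and 0.00133 for MV4-11 minus OCI-AML3, limma), although 1 OCI-AML3 control at 8.63 overlapped MV4-11. OLMALINC, a lncRNA named for oligodendrocyte maturation, averaged 6.79 ± 0.577 in MV4-11, 7.15 ± 1.03 in MOLM13 and 9.53 ± 1.43 in OCI-AML3 (SD, n = 4 each, adjusted p = 0.00292 for MV4-11 minus OCI-AML3, limma). ZFPM2-AS1 was lower in MV4-11 than in both other lines, with folds of 12.2 and 16.7 with VTP50469 and 11.6 and 13.8 in controls of MOLM13, 6.42 and 4.88 with VTP50469 and 4.93 and 6.34 in controls of MV4-11, and 9.59 and 7.12 with VTP50469 and 11.4 and 7.01 in controls of OCI-AML3, and all 4 MV4-11 values lay below all others. It did not pass between MOLM13 and OCI-AML3. Its shift for MOLM13 minus MV4-11 was 2.84 ± 0.35 (SE) SD (adjusted p = 0.000347, limma) and for MV4-11 minus OCI-AML3 -1.77 SD (adjusted p = 0.00434, limma). MINCR, a MYC-induced lncRNA, averaged 9.12 ± 1.58 in MOLM13 and 6.79 ± 0.892 in MV4-11 (SD, n = 4 each, adjusted p = 0.0117, limma).

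LOC107986186, inside the ectoenzyme gene BST1 on the opposite strand and 21.9 kb from CD38, was lower in MV4-11, with 13.2 ± 1.99 for MOLM13, 7.37 ± 1.72 for MV4-11 and 13.6 ± 0.957 for OCI-AML3 (SD, n = 4 each, adjusted p = 0.00192 for MOLM13 minus MV4-11 and 0.000363 for MV4-11 minus OCI-AML3, limma). LOC137778871, 30.6 kb from ZNF701, had 5.19 and 3.96 with VTP50469 and 4.17 and 6.07 in controls of MOLM13, 12.7 and 13.5 with VTP50469 and 10.3 and 11.2 in controls of MV4-11, and 8.92 and 9.50 with VTP50469 and 7.35 and 9.24 in controls of OCI-AML3. The 3 lines did not overlap there, with MOLM13 lowest and MV4-11 highest (shift for MOLM13 minus MV4-11 -2.02 ± 0.32 (SE) SD, adjusted p = 0.00200, limma). MOLM13 minus OCI-AML3 passed there too (adjusted p = 0.00238, limma), but MV4-11 minus OCI-AML3 did not. LINC01159, on the opposite strand of POU3F3, averaged 5.26 ± 1.31 in MOLM13 and 12.1 ± 0.453 in MV4-11 (SD, n = 4 each, adjusted p = 0.00547, limma), and LOC105375188, whose nearest gene is NPY, 7.07 ± 1.55 and 15.9 ± 1.58 (SD, n = 4 each, adjusted p = 0.00605, limma). Every MV4-11 value of both lay above every MOLM13 value. Leaving out any MOLM13 or MV4-11 library brought the 26 regions of MOLM13 minus MV4-11 down to between 15 and 19.

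**Figure D5:**
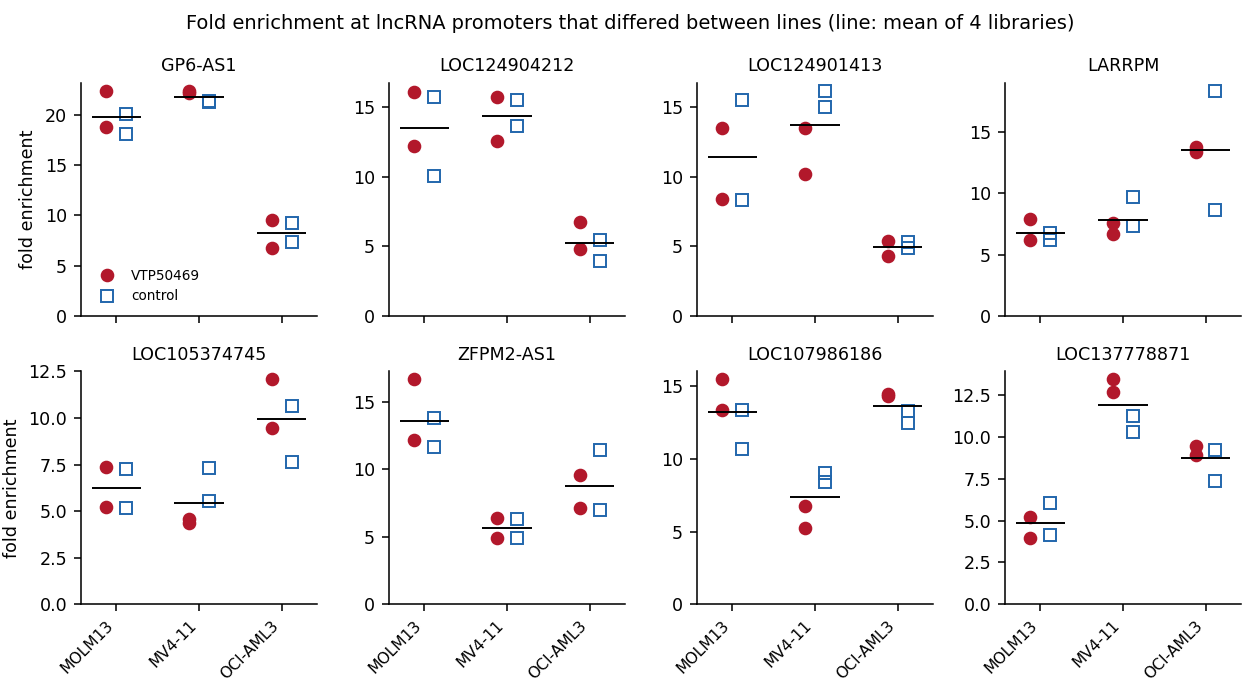
Fold enrichment of the strongest peak at 8 stand-alone lncRNA promoters in each of the 12 libraries, by line, with VTP50469-treated and control libraries marked apart and a bar at the mean of the 4 libraries of a line. GP6-AS1 and LOC124904212 are lowest in OCI-AML3, LARRPM and LOC105374745 highest there, and ZFPM2-AS1 is lowest in MV4-11.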

How the data were processed

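Processed peak lists of bulk ATAC-seq were used from 12 libraries, 2 for each of 3 AML lines with VTP50469 and 2 for their controls. The authors had deposited 1 narrowPeak list per library on hg38, called by themselves in each library and not on pooled replicates. The submitters' processing notes name MACS2 2.1.0, Bowtie 1.1.2, Trimmomatic 0.33, bcl2fastq 2.17 and deepTools, and the peak threshold, the read shift and the handling of duplicates were not given in the sources used here. The deposited score is −log10 q multiplied by 10 and cut to a whole number, the fold enrichment (a ratio) is over the local background of the library, and −log10 p and −log10 q values and the summit offset were also deposited by the authors. The lowest −log10 q of any called peak was 1.30. Summit reads were recovered from these columns, and 99.9% of peaks at the lncRNA promoters gave whole reads within 0.001.

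Gene starts came from RefSeq (GRCh38.p14), with the strand from its promoter table for 11145 lncRNA genes and from GENCODE by symbol for 1383. Of 17795 lncRNA genes on chromosomes 1 to 22, 12528 could be placed. Presence was compared with exact permutation tests within lines and Fisher's exact test, and strength with limma 3.58.1 (R 4.3.3) on normal scores of the fold ranks, adjusted over all windows or regions by Benjamini-Hochberg. The read-based test of the study could not be used on peak lists. Scripts in Python 3.11.15 with pandas 2.3.3 and scipy 1.17.1 were tested on simulated data. Alternatives changed the window, the threshold, the number of peaks, the strength measure and the libraries. Replicate numbers did not pair the samples. Nothing in the labels says that the libraries of a group came from separate cultures, so p-values measure the spread between these libraries, which may be technical.

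Promoters named were those of fixed gene lists, the 6 strongest in all 12 libraries, and, for each line or contrast, the 3 to 6 foremost of each test or rank and every window changed in more than 1 line. The windows, lists and tests were chosen with earlier results of these data known. A few of the genes that these rules name are not reported here.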

Additional observations from a re-analysis of the deposited data

Results flagged for a closer look

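At 4 stand-alone promoters peaks went in opposite directions in 2 lines, each by both libraries of each condition, and the difference between the lines was not tested. LOC105375208 was lost in MV4-11 (control folds 4.81 and 5.95) and gained in OCI-AML3 (treated folds 5.95 and 7.35), with 3.98 as the lower −log10 q of the weaker of the 2 changes. LOC124902895 was gained in MOLM13 (treated folds 6.49 and 6.91) and lost in OCI-AML3 (control folds 4.28 and 9.24), with 2.76 by the same measure. MYOZ3-AS1 was gained in MOLM13 (treated folds 5.85 and 4.37) and lost in OCI-AML3 (control folds 5.47 and 4.09), with 2.65. SH3PXD2A-AS1 was gained in MOLM13 (treated folds 6.11 and 5.77) and lost in MV4-11 (control folds 3.90 and 4.60), with 2.85.

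At 3 promoters the log2 difference in fold had opposite signs in 2 lines, and the difference between the lines was not tested either. For LOC100288069 and LINC01409 the log2 difference of VTP50469 minus control was 0.82 in MV4-11 and -0.96 in MOLM13. For LOC105376474 and SVIL-AS1 it was 0.08 in MOLM13, which is hardly a change, and -1.06 in OCI-AML3. For LOC124906214 it was 0.77 in MOLM13 and -0.51 in MV4-11.

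The fold of LOC107987031 in the 4 MOLM13 libraries was 10.4 and 10.6 with VTP50469 and 8.24 and 10.3 in controls, and the gap of the first control to the others was 0.872 of the range. Among many groups of 4 libraries such gaps also come about by chance, and how often was not tested here.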

How the results depend on the processing

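The treated minus control share of open stand-alone promoters (0.0935 points) turned negative with a window of 500 bp (-0.0323), with a −log10 q of at least 5 (-0.307), at an equal peak number (-0.0234), per 10000 peaks (-1.31) and with curated genes alone (-0.150), and ran from -0.408 to 0.595 without 1 library. It passed no test in any setting. Lost windows of MOLM13 came to 20 in windows of 500 bp. At a −log10 q of at least 5 there were 10 lost in MOLM13, 17 gained in MV4-11, 37 lost and 19 gained in OCI-AML3, and 11 missing in MOLM13 alone. At an equal peak number 39 were gained in MOLM13, 16 were open and 11 missing in MOLM13 alone, 26 open in MV4-11 alone and 30 open in OCI-AML3 alone. Curated genes alone, a choice made after seeing the data, gave 398 windows open in all 12 libraries, 15 lost and 23 gained in MOLM13, 32 and 12 in MV4-11, 32 and 16 in OCI-AML3, 36 open and 2 missing in MV4-11 alone, and 7 open and 24 missing in OCI-AML3 alone. Strength from −log10 q called 48 regions in MOLM13 minus MV4-11 and 108 in MOLM13 minus OCI-AML3. Shares over all windows or regions in these settings are not given here, so no count is read as particular to lncRNA promoters.

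Without 1 library, lost windows numbered 33 to 178 in MOLM13, 60 to 198 in MV4-11 and 59 to 377 in OCI-AML3, and gained windows 64 to 281, 36 to 254 and 33 to 226. Windows open or missing in 1 line alone came to 0 throughout, and strength called 15 to 32 regions in MOLM13 minus MV4-11, 36 to 56 in MOLM13 minus OCI-AML3 and 61 to 96 in MV4-11 minus OCI-AML3. The class difference stayed between -46.0 and -45.7 points. With a replicate block, the treatment share had a p of 0.906 in the exact paired permutation test, treatment strength called 0 and the line contrasts 22, 61 and 86. Same-numbered libraries did not deviate together (correlations -0.0037, 0.0167 and -0.025). Few summit reads, with a median of 12 to 18, limit what can be seen at these promoters. The causes of these shifts were not tested, and shares over all windows or regions without 1 library or with the block are not given here.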
